A study of Mus musculus with 10 samples.

Results

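The 38 genes described here are the transporters and enzymes of glycolysis (21 genes), the oxygen-regulated transcription factor subunit Hif1a, and 16 genes outside glycolysis that the hypoxia-inducible factor (HIF) is known to drive. They were taken by symbol from the 22186 rows of the deposited table, and all 38 were found. The values are FPKM (mapped fragments per transcript length, relative to the library's total), and the 9869 genes that averaged 1 FPKM or more over the 10 libraries were tested, 37 of the 38 among them. Ldhb, the lactate dehydrogenase subunit of oxidative tissues, was listed at 0 in all 10 libraries and was not tested.

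Poly(A) RNA was sequenced from RAW264.7, an established mouse macrophage-like line of tumour origin labelled wild type, after 24 h in medium with serum (5 libraries) or in the same medium with doxorubicin (5 libraries), an anthracycline drug that poisons topoisomerase II. The sources gave 3 doxorubicin doses: 10 nM in the sample titles, 100 nM in the series design, and 1000 nM as the product of a 0.001% dilution of a 100 mM stock in dimethyl sulfoxide. The solvent was named for the doxorubicin cultures only. Both groups carried replicate numbers 1 to 5, and nothing in the labels ties the libraries to separate cultures. The spread behind every p-value is therefore that between these samples and may be technical.

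Glycolysis splits glucose into pyruvate, first spending ATP in the preparatory steps and then regaining it in the payoff steps, and lactate dehydrogenase turns pyruvate into lactate, which leaves the cell through monocarboxylate carriers. HIF is a pair of an oxygen-labile alpha subunit and a stable partner. Prolyl hydroxylases mark the alpha subunit for destruction by the VHL ligase when oxygen is present, so HIF activity is set largely at the protein level, and when it accumulates it binds DNA at a short core sequence and drives glycolytic genes as well as genes for vessel growth, mitophagy, collagen modification and its own hydroxylases. In macrophages the same programme is known to follow both low oxygen and inflammatory activation.

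As examples of upstream sequence, 5 promoters are printed, all of which hold the core marked below, as not all promoters of these genes do. Each is the 250 bases before the gene's most upstream RefSeq start in the GRCm38.p6 table, 5′ to 3′ on the gene's strand. Ero1a, Ankrd37 and Bnip3 are HIF targets and Slc2a1 the glucose transporter, all 4 lower with doxorubicin once libraries were compared within replicate numbers, and Ldha is the lactate enzyme that was not called. Capitals mark ACGTG or GCGTG on either strand, the short core that HIF binds.
Ero1a (chr14:45318573-45318822, minus strand): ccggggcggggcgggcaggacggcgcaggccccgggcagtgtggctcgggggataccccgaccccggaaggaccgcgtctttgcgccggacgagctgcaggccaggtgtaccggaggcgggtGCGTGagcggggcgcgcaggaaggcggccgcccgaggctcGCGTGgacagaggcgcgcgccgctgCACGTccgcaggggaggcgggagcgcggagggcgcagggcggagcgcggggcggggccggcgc
Ankrd37 (chr8:45999851-46000100, minus strand): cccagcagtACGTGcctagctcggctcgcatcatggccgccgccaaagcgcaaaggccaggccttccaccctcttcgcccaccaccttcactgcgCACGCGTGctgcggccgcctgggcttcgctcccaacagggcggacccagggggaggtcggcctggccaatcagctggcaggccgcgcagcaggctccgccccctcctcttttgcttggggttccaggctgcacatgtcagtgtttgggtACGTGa
Bnip3 (chr7:138909507-138909756, minus strand): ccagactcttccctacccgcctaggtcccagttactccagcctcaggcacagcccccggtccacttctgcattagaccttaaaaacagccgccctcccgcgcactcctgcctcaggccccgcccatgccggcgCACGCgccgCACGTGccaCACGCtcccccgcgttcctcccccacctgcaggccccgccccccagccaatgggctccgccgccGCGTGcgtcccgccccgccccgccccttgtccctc
Slc2a1 (chr4:119108495-119108744, plus strand): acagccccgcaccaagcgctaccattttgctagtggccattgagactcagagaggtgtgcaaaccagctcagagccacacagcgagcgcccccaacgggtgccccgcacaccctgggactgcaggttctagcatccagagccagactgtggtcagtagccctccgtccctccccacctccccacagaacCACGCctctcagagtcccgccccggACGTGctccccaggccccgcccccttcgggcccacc
Ldha (chr7:46845554-46845803, plus strand): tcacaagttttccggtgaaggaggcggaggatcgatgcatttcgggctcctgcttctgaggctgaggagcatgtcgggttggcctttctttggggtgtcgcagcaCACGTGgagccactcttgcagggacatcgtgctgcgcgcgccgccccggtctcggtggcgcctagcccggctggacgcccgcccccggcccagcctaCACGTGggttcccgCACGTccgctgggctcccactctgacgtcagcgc

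Of the 38 genes, 35 had an entry in that table (Ndrg1, Bhlhe40 and Bnip3l did not). ACGTG on either strand was found in 9 of 21 glycolytic promoters (42.9%) and in 7 of 13 HIF target promoters (53.8%), against 16.5% of all 27025 genes with 1 promoter each. GCGTG was in 9 of 13 HIF target promoters (69.2%), 10 of 21 glycolytic promoters (47.6%) and 28.3% of all genes. Of the 10 HIF targets with an entry that were lower within replicate numbers, 7 held ACGTG and 7 held GCGTG, and of the 3 that were not called, 0 held ACGTG and 2 held GCGTG. The E-box CACGTG, which holds ACGTG on both strands, was in 1 of 13 HIF target promoters, 3 of 21 glycolytic promoters and 6.04% of all genes, and 2 copies of it lie in the Ldha window. The windows of the HIF targets Vegfa, Hilpda and Mxi1 had none of these words, nor had those of Aldoa, Gpi1, Hk1, Pkm and Tpi1. Base composition differed as well, with a median of 20 CpG dinucleotides in the HIF target windows, 14 in the glycolytic windows and 6 over all genes, and its part in the motif shares was not tested. The most upstream start of a gene need not be the one used in these cells. Which starts were in use was not determined, so the shares of the classes are uncertain to that extent.

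The labelled cell type was checked against markers, and 8 of 10 macrophage markers averaged 1 FPKM or more (Mertk and Mrc1 did not), with Adgre1 at 135 to 172 FPKM and Csf1r at 80.7 to 101 FPKM over the 10 libraries. Lymphocyte, fibroblast, epithelial, endothelial and erythroid markers were all below 1 FPKM, and of 5 neutrophil markers S100a8 alone reached it. The summed macrophage markers lay at 1360 to 1504 FPKM in medium and 1429 to 1636 in doxorubicin. The drug response was visible in the p53 targets Cdkn1a, Ccng1, Phlda3 and Mdm2, which rose by 1.48, 1.56, 1.22 and 0.99 on the log2(FPKM + 1) scale (limma, adjusted p = 0.00466 for Cdkn1a and 0.0354 for Mdm2). Library totals lay between 338293 and 356111 FPKM. The deposited values hold no read totals, so the depth of each library is unknown.

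Glycolytic RNA was among the most abundant in these cells. By mean FPKM over the 10 libraries, Gapdh ranked 4th of 22186 genes, Pkm 6th, Eno1 7th and Ldha 8th, and 7 of the 20 detected glycolytic genes were in the top 50. The 21 glycolytic genes took 3.53% to 3.64% of all FPKM in medium libraries 2 to 5 and 5.92% in medium library 1. In the doxorubicin libraries the share was 3.36% to 3.51% in numbers 2 to 5 and 4.72% in number 1. The 16 HIF targets took far less, 0.197% to 0.263% in medium 2 to 5 and 0.609% in medium 1, then 0.144% to 0.205% in doxorubicin 2 to 5 and 0.312% in doxorubicin 1.

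**Figure D1:**
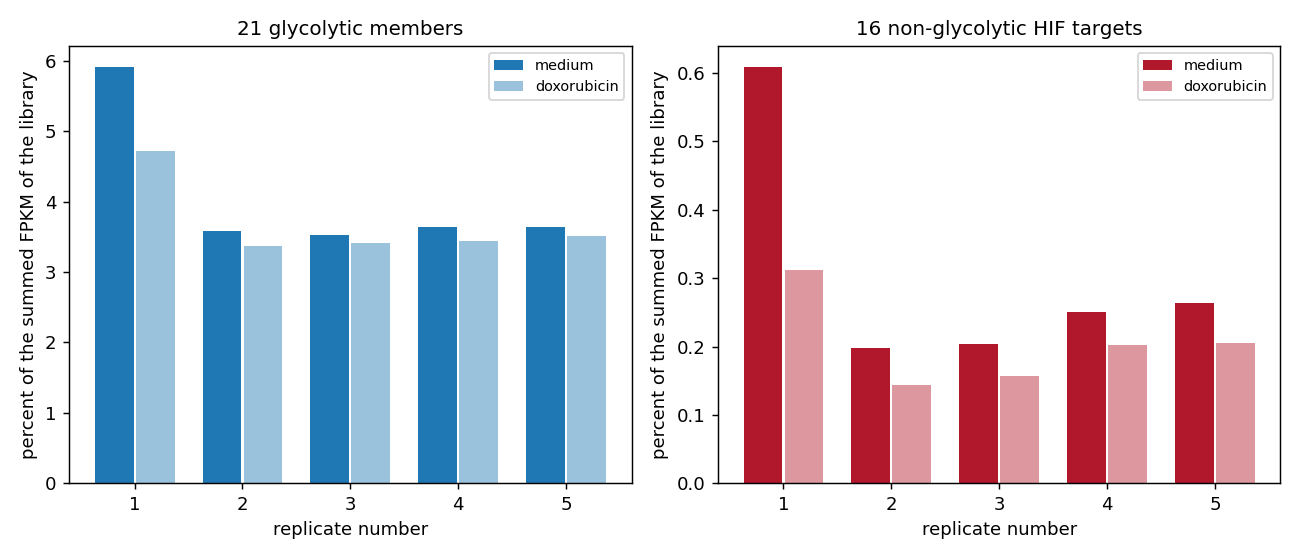
Share of the summed FPKM of each library (percent, vertical axes from 0) taken by the 21 glycolytic genes (left, blue) and the 16 HIF targets (right, red), by replicate number, with medium in dark and doxorubicin in pale bars, each bar 1 library. The pale bar is below the dark bar in every number, and number 1 is the highest in both groups.

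Library 1 of each group thus stood above the other 4. Medium 1 was the highest of all 10 libraries for 35 of the 37 tested genes. Its level over the mean of medium 2 to 5 had a median of 2.53 for the HIF targets and 1.67 for the glycolytic genes, and reached 5.28 for Bhlhe40, 4.26 for Vegfa and 3.84 for Hk2. The lactate carrier Slc16a1 went the other way, at 0.533. Doxorubicin 1 was the highest doxorubicin library for 34 of the 37 genes. These counts were not made over all genes. Against the mean of medium 2 to 5 on the log2(FPKM + 1) scale, the median in medium 1 was 1.25 for HIF targets, 0.72 for glycolytic genes and -0.10 for all genes tested. In doxorubicin 1 these medians were 0.39, 0.40 and -0.10. Results are therefore given without and with a term for the replicate number, and the class values also without number 1.

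**Figure D2:**
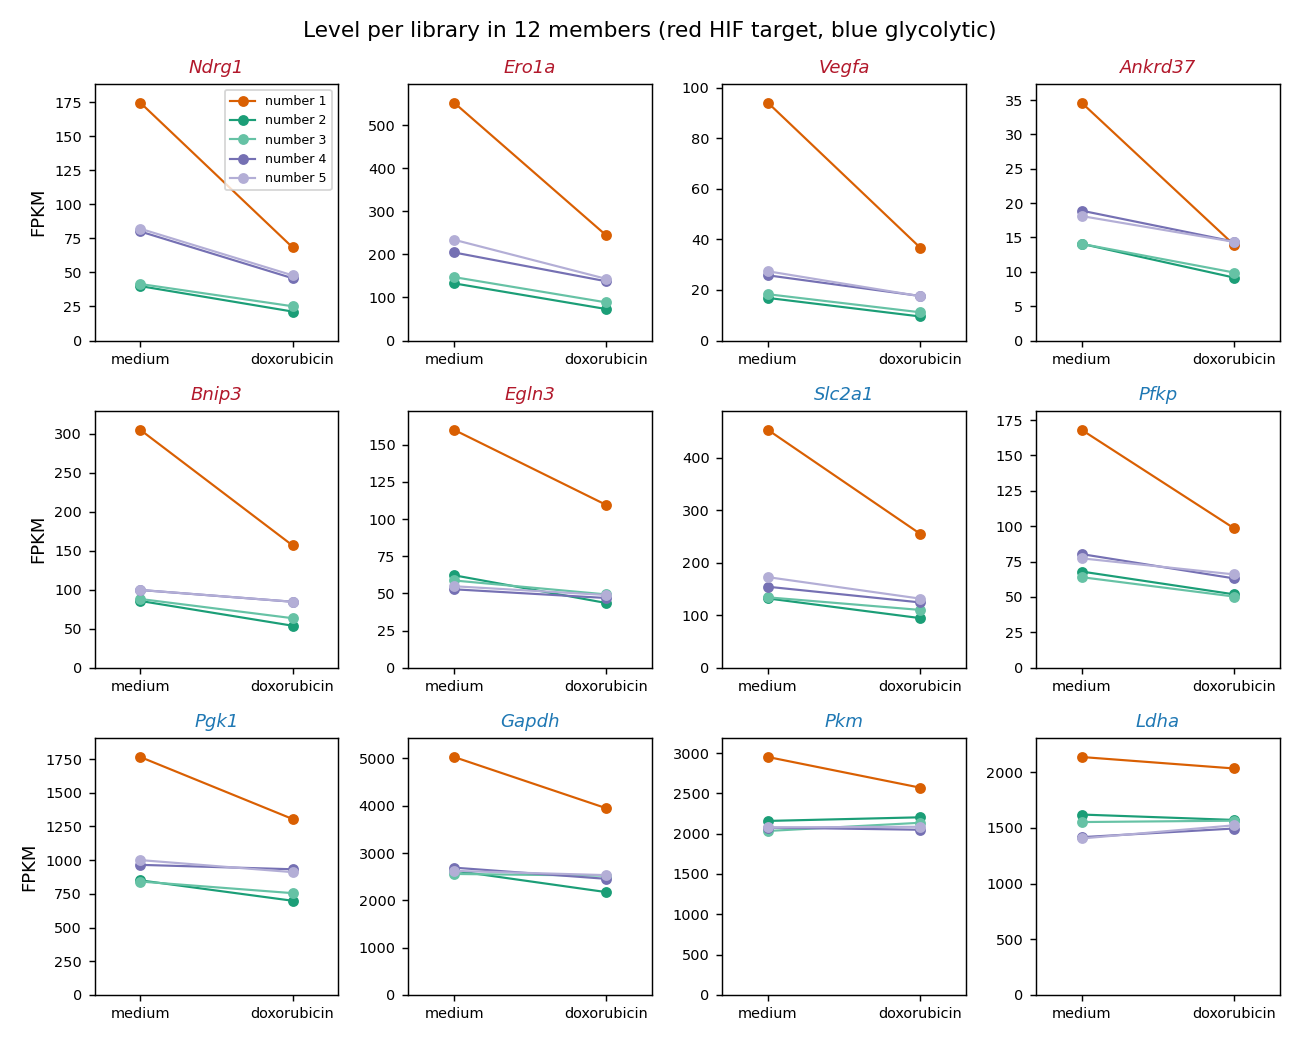
FPKM in each library (vertical axes from 0) for 12 genes, HIF targets titled in red and glycolytic genes in blue, with a line joining medium and doxorubicin of the same replicate number. Number 1, in orange, lies above the others in medium in every panel, and the lines of Ndrg1, Ero1a and Vegfa slope down in all 5 numbers.

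Without a term for the replicate number, no gene of the 37 passed the test (limma, group only, adjusted p from 0.213 for Ankrd37 to 0.999). At an unadjusted p under 0.05 in limma there was 1 of the 37, Ankrd37, against 1757 of all 9869 genes tested. The exact permutation test of each gene over the 10 libraries gave an unadjusted p of 0.0476 at the lowest, for Pdk1, and 0.0635 for Ankrd37. By adjusted p, the group-only limma fit called 0.689% of all genes tested higher and 0.223% lower. The medium and doxorubicin ranges overlapped for all 37 genes, while they were apart in 3.97% of all genes on the lower side and 2.73% on the higher side.

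Libraries were next compared within replicate numbers. In bulk libraries, fewer cells with a programme and less RNA per cell cannot be told apart. With the number as a block, 11 of the 16 HIF targets fell (68.8%) and none rose, and 3 of the 20 glycolytic genes fell (15.0%) and none rose, where 13.7% of all genes were called lower and 7.81% higher. The glycolytic share is near the background in this fit, but not with every scaling. With quantile normalization the blocked fit called 6 of the 20 glycolytic genes lower and 1 higher, and 9 HIF targets lower. That glycolytic share was above the share of all genes called lower in the same fit. With median scaling of the libraries the blocked fit called 1421 genes higher (14.4%) and 861 lower (8.72%) over the whole table, and 10 HIF targets lower, 2 glycolytic genes lower and 1 higher. Of the 14 genes that fell with the block and no scaling, 8 (the HIF targets Egln3, Bnip3, Vegfa, Ero1a, Ndrg1 and Ankrd37, with Slc2a1 and Pfkp) were also called when any 1 of the 5 numbers was left out, as were 3.25% of all genes on the lower side and 2.29% on the higher side. The block treats the 5 numbers as 5 independent pairs, but numbers 2 and 3, and 4 and 5, resemble each other closely. When each of those couples was averaged, leaving 3 sets, no gene of the 37 was called (lowest adjusted p = 0.0628, Ero1a and Ndrg1), in a fit that called 0.152% of all genes lower and 0.0912% higher.

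The sizes of the differences were set side by side by class. The median log2 difference, doxorubicin minus medium, was -0.35 for the HIF targets and -0.11 for the glycolytic genes, against -0.03 for all 9869 genes. The point estimate was below 0 for 16 of 16 HIF targets, 15 of 20 glycolytic genes and 5606 of the 9869. Within numbers 1 to 5 in turn, the HIF target median was -0.77, -0.46, -0.21, -0.17 and -0.24. The glycolytic median was -0.32, -0.15, -0.02, -0.05 and -0.0041, and the median of all genes stayed between -0.07 and 0.02. Number 1 had the lowest median in both classes, while the median of all genes in number 1 was 0.02. It was the number with the lowest difference for 33 of the 37 genes, a count not made over all genes.

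Without number 1, the HIF target median was -0.26, the glycolytic median -0.07 and that of all genes -0.04. The block then called 11 of 16 HIF targets lower, 3 of 20 glycolytic genes lower and 1 higher (Slc16a1), with 18.4% of all genes lower and 10.2% higher. Of the HIF targets, 14 of 16 were lower with doxorubicin in each of the 5 numbers, of the glycolytic genes 8 of 20, and of all genes 23.1%. Higher in each of the 5 numbers was 1 gene, Slc16a1, against 13.2% of all genes. The difference between the classes has no test of its own here, since genes are not replicates.

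**Figure D3:**
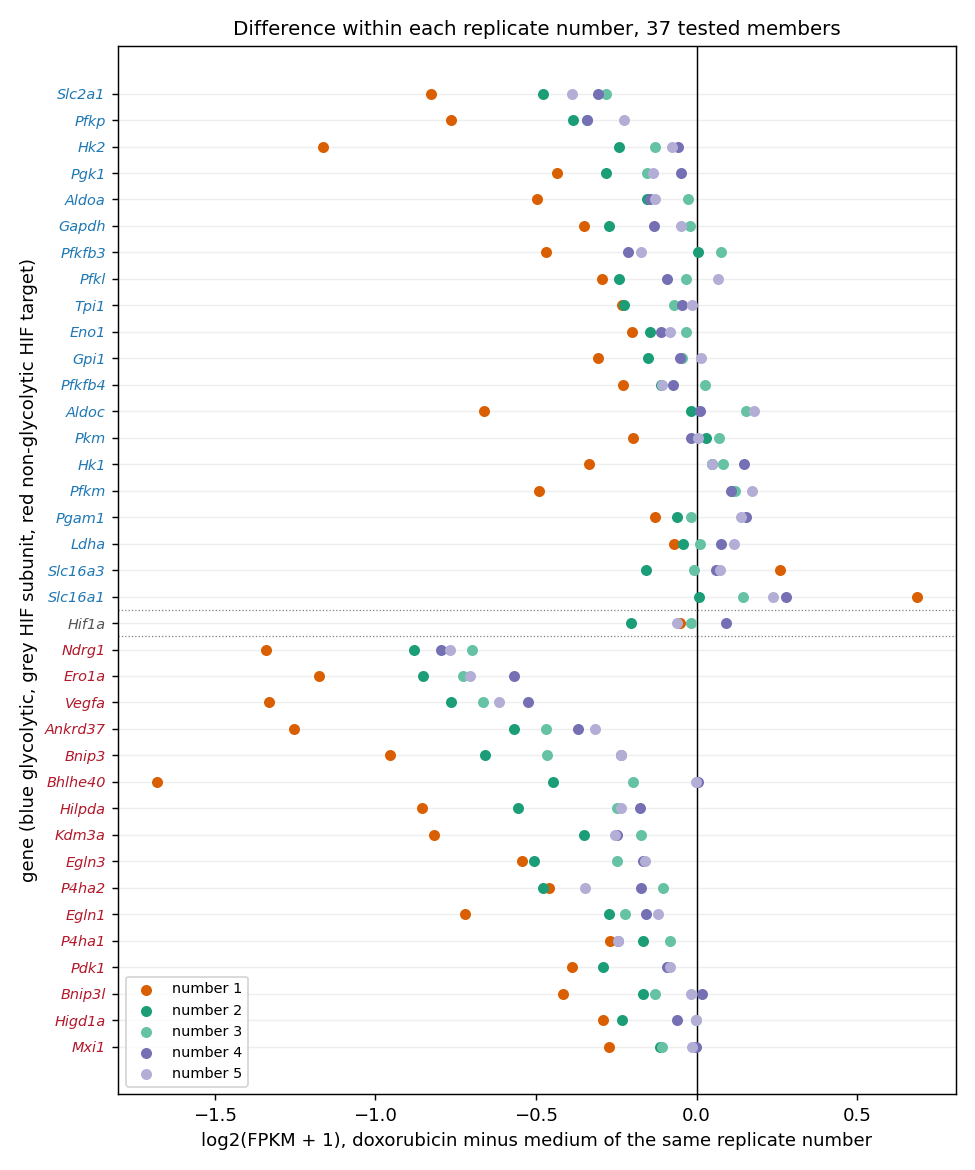
Log2 difference, doxorubicin minus medium, within each replicate number for the tested genes, with glycolytic genes in blue, Hif1a in grey and HIF targets in red. The HIF target medians run from -0.77 in number 1 to -0.17 in number 4, and the glycolytic medians from -0.32 in number 1 to -0.0041 in number 5.

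Hif1a itself, the alpha subunit, was not called. Its FPKM was 32.6, 27.996, 27.6, 27.4 and 27.1 in medium 1 to 5 and 31.4, 24.2, 27.3, 29.3 and 25.96 in doxorubicin 1 to 5. The groups overlap widely, and the log2 difference of -0.05 had a 95% interval of -0.17 to 0.07 with the block (limma, adjusted p = 0.531). Medium 1 exceeded medium 2 to 5 by 1.18-fold here, less than for any of the 16 HIF targets (1.27-fold at the lowest).

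Both oxygen-sensing prolyl hydroxylases, which are HIF targets and mark HIF alpha for destruction, fell with the block. Egln3 had 160.1, 62.2, 58.7, 52.8 and 54.8 FPKM in medium 1 to 5 and 109.5, 43.5, 49.3, 46.9 and 48.9 in doxorubicin 1 to 5. Within numbers 2 to 5 each doxorubicin library was below its medium partner, and all 4 of those doxorubicin values were below the lowest medium value. The log2 difference was -0.32 with a standard error (SE) of 0.07 (limma with block, adjusted p = 0.0156; 0.651 without block). Without number 1 it was the 1 gene of the 37 called with no block, at -0.27 (limma, adjusted p = 0.0407), where 2.77% of all genes were called lower and 2.87% higher. Egln1 had 53.7, 24.8, 25.0, 22.4 and 22.8 FPKM in medium and 32.2, 20.4, 21.3, 19.99 and 20.9 in doxorubicin, a difference of -0.30 ± 0.09 (SE; limma with block, adjusted p = 0.0401; 0.533 without). It lost its call when any number other than 1 was left out (adjusted p up to 0.0817). Of the summed FPKM of Egln1 and Egln3, without Egln2, Egln3 supplied 71.5% ± 1.99 in medium and 71.1% ± 3.58 in doxorubicin (SD, n = 5).

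Genes for secreted factors, protein folding and collagen modification all fell with the block. Ero1a, the oxidase that renews disulfide-forming capacity in the endoplasmic reticulum, was the most abundant HIF target, with 552, 133, 147, 205 and 234 FPKM in medium 1 to 5 and 244, 73.1, 88.5, 138 and 143 in doxorubicin 1 to 5. Each doxorubicin library was below its partner, by -1.18, -0.85, -0.73, -0.57 and -0.71 on the log2 scale. The difference of -0.81 had an SE of 0.08 and a 95% interval of -0.99 to -0.62 (limma with block, adjusted p = 0.00111; 0.325 without).

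Vegfa, the main growth factor of blood vessels, had 94.0, 16.8, 18.3, 25.8 and 27.4 FPKM in medium and 36.7, 9.51, 11.2, 17.6 and 17.5 in doxorubicin. All 5 doxorubicin libraries were below their partners, yet doxorubicin 1 exceeded medium 2 to 5, so that the groups overlap. The difference was -0.78 ± 0.11 (SE; limma with block, adjusted p = 0.00364; 0.408 without).

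The prolyl 4-hydroxylase subunits, which modify collagen so that its triple helix holds, moved less. P4ha1 had 54.4, 38.2, 37.7, 48.3 and 47.0 FPKM in medium and 44.96, 33.9, 35.5, 40.6 and 39.5 in doxorubicin, a difference of -0.20 ± 0.05 (SE; limma with block, adjusted p = 0.0206; 0.384 without). P4ha2 was near the detection filter, at 4.39, 1.04, 0.877, 1.16 and 1.44 FPKM in medium and 2.92, 0.462, 0.747, 0.912 and 0.919 in doxorubicin, where the added 1 FPKM understates changes. Its difference was -0.31 ± 0.08 (SE; limma with block, adjusted p = 0.0232; 0.653 without). P4ha1 lost its call without number 4 or 5 (adjusted p up to 0.088), and P4ha2 without number 2, 4 or 5 (up to 0.0827).

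Ndrg1, a stress-induced gene of the N-myc downstream family, gave the largest difference of the 37. It had 175, 39.9, 41.5, 80.0 and 82.0 FPKM in medium 1 to 5 and 68.4, 21.3, 25.1, 45.7 and 47.8 in doxorubicin 1 to 5. Within numbers the differences were -1.34, -0.88, -0.70, -0.79 and -0.77, so numbers 2 to 5 lay close together and number 1 was the largest. The overall difference was -0.90 ± 0.09 (SE) with a 95% interval of -1.10 to -0.70 (limma with block, adjusted p = 0.00111; 0.294 without). Hilpda, an inhibitor of lipid droplet breakdown, had 227, 56.1, 57.7, 67.8 and 77.1 FPKM in medium and 125, 37.8, 48.5, 59.9 and 65.3 in doxorubicin. It fell by 0.41 ± 0.10 (SE; limma with block, adjusted p = 0.0208; 0.633 without) and lost its call without number 2 or 5 (adjusted p up to 0.0598).

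Of the genes tied to mitophagy and respiration, 1 of 3 fell. Bnip3, a receptor that brings mitochondria to the autophagosome, had 305, 85.5, 88.0, 99.6 and 99.6 FPKM in medium and 157, 53.8, 63.4, 84.5 and 84.5 in doxorubicin. The within-number differences were -0.96, -0.66, -0.47, -0.23 and -0.23, smaller in numbers 4 and 5 than in the others, and the overall value was -0.51 ± 0.10 (SE; limma with block, adjusted p = 0.0127; 0.508 without). Its relative Bnip3l had 85.9 ± 23.2 FPKM in medium and 76.6 ± 12.2 in doxorubicin (SD, n = 5), a difference of -0.14 that was not called (limma with block, adjusted p = 0.143). Bnip3 was 58.2% ± 6.95 of the summed FPKM of the pair in medium and 52.0% ± 6.31 in doxorubicin (SD, n = 5), lower in each of the 5 numbers. Higd1a, a respiratory supercomplex factor, had a difference of -0.12 (limma with block, adjusted p = 0.179).

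Pdk1, the kinase that shuts pyruvate out of the mitochondrial dehydrogenase complex, just missed the threshold. It had 60.3, 46.0, 44.6, 47.9 and 48.2 FPKM in medium and 45.9, 37.4, 41.9, 44.9 and 45.5 in doxorubicin. Every doxorubicin library was below its partner, but by -0.08 to -0.09 in numbers 3 to 5 against -0.39 and -0.29 in numbers 1 and 2. The difference was -0.19 ± 0.06 (SE; limma with block, adjusted p = 0.0531; 0.311 without).

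Among nuclear factors, the histone demethylase gene Kdm3a and Ankrd37 fell with the block, and Mxi1 and Bhlhe40 were not called. Ankrd37, a small ankyrin-repeat gene, had 34.6, 14.1, 14.1, 18.9 and 18.1 FPKM in medium and 14.0, 9.16, 9.90, 14.4 and 14.4 in doxorubicin. Here doxorubicin 1 was no higher than doxorubicin 4 and 5, and 2 doxorubicin libraries stood above the lowest medium library, so the groups overlap by little. The difference was -0.59 ± 0.12 (SE; limma with block, adjusted p = 0.015; 0.213 without). Kdm3a had 24.5, 11.5, 11.1, 16.1 and 16.03 FPKM in medium and 13.5, 8.84, 9.70, 13.4 and 13.3 in doxorubicin, a difference of -0.37 ± 0.09 (SE; limma with block, adjusted p = 0.0247; 0.364 without), and lost its call without number 2, 4 or 5 (adjusted p up to 0.0656).

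In Bhlhe40, a transcriptional repressor of the circadian clock, the difference lay mostly in number 1. It had 172 FPKM in medium 1 and 52.9 in doxorubicin 1, while numbers 4 and 5 had 37.8 and 37.2 FPKM in both groups. Within numbers 2 and 3 the difference was -0.45 and -0.20. Over all numbers it was -0.46 and was not called (limma with block, adjusted p = 0.155). It was -0.16 without both libraries of number 1, and 0.011 without medium library 1 alone. Mxi1, a MAX-binding repressor, had a difference of -0.10 (limma with block, adjusted p = 0.183).

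**Figure D4:**
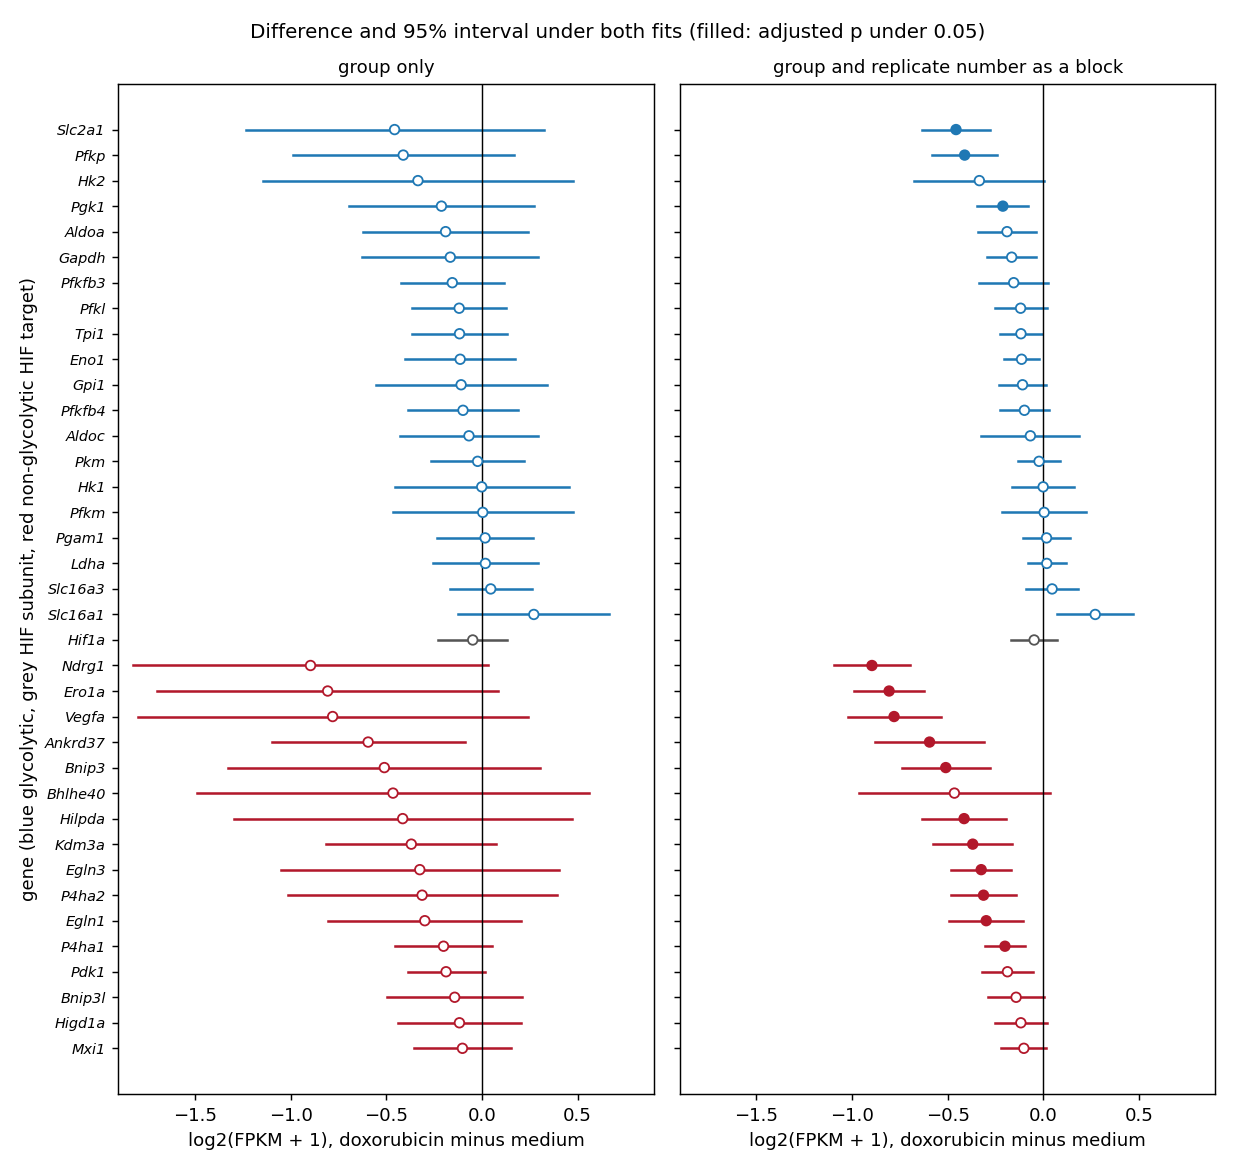
Log2 difference, doxorubicin minus medium, for each tested gene with its 95% interval from limma with the replicate number as a block, and, in the left panel, without it. Filled points passed the threshold, glycolytic genes are blue, Hif1a grey and HIF targets red. Ndrg1, Ero1a and Vegfa lie farthest below 0, Slc16a1 lies farthest above it, and no point in the left panel is filled.

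Slc2a1 (GLUT1), a transporter that brings glucose into the cell, was the glycolytic gene with the largest fall. It had 453, 132, 134, 154 and 172 FPKM in medium 1 to 5 and 255, 94.4, 110.0, 124 and 132 in doxorubicin 1 to 5. The differences within numbers 1 to 5 were -0.83, -0.48, -0.28, -0.31 and -0.39. The overall difference was -0.46 ± 0.08 (SE; limma with block, adjusted p = 0.00729; 0.538 without), and it was -0.36 without number 1, where the HIF target median was -0.26.

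Of the 9 preparatory enzymes, Pfkp alone was called. This platelet-type phosphofructokinase had 168, 67.9, 64.0, 80.3 and 77.3 FPKM in medium and 98.6, 51.8, 50.3, 63.1 and 65.9 in doxorubicin. Within numbers it was lower by -0.76, -0.38, -0.34, -0.34 and -0.23, and the overall difference was -0.41 ± 0.07 (SE; limma with block, adjusted p = 0.00922; 0.445 without). Its sister subunits, Pfkl of liver type and Pfkm of muscle type, had mean FPKM of 71.7 ± 12.5 and 14.3 ± 6.44 in medium and 65.5 ± 6.37 and 13.7 ± 2.49 in doxorubicin (SD, n = 5), with neither called (limma with block, adjusted p = 0.178 and 0.979).

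Pfkp therefore made up a smaller part of the summed phosphofructokinase FPKM with doxorubicin, in each number. Its share was 58.5%, 45.1%, 44.6%, 51.3% and 51.6% in medium 1 to 5 and 51.2%, 41.6%, 38.9%, 46.3% and 46.1% in doxorubicin 1 to 5. The shares of the groups overlap, and the part of Pfkm was 7.89% ± 0.762 in medium and 9.45% ± 0.717 in doxorubicin (SD, n = 5). In doxorubicin Pfkl supplied 45.7% ± 4.33 and Pfkp 44.8% ± 4.74 (SD, n = 5), which differ by less than the spread between libraries.

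Of the hexokinases, which trap glucose as its phosphate, Hk2 is the inducible form and Hk1 the housekeeping form. Hk3, outside the 38 genes and named after its values were seen, had 85.5 ± 21.3 FPKM in medium and 82.3 ± 17.5 in doxorubicin (SD, n = 5). It was not called (limma with block, adjusted p = 0.471). Hk2 averaged 84.1 ± 68.1 FPKM in medium and 57.6 ± 19.3 in doxorubicin (SD, n = 5). By mean, Hk3 thus lay above Hk1 and no lower than Hk2 in either group. Hk2 had 206 FPKM in medium 1 and 91.4 in doxorubicin 1, and 44.6 to 56.3 FPKM in the other 8 libraries. Its difference of -0.33 had an SE of 0.15 with the block (limma, adjusted p = 0.134) and came largely from number 1, where it was -1.16, against -0.24 to -0.06 in numbers 2 to 5. Hk1 lay at 29.2 to 34.2 FPKM in numbers 2 to 5 of both groups and was higher with doxorubicin in each of those 4 numbers and lower in number 1. The share of Hk2 in the sum of Hk1 and Hk2, without Hk3, was 76.7%, 61.6%, 62.3%, 65.1% and 65.3% in medium and 64.8%, 56.6%, 58.6%, 61.7% and 63.3% in doxorubicin, lower in each number.

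The other preparatory enzymes were not called. Aldoa, the main aldolase, had 1621 ± 569 FPKM in medium and 1385 ± 273 in doxorubicin (SD, n = 5), a difference of -0.19 that missed the threshold (limma with block, adjusted p = 0.0697). Gpi1 and Tpi1, the isomerases of glucose phosphate and triose phosphate, had differences of -0.11 and -0.12, and the brain-type aldolase Aldoc -0.07 (limma with block, adjusted p = 0.165, 0.11 and 0.691). Aldoc supplied 3.22% ± 0.249 of aldolase FPKM in medium and 3.51% ± 0.435 in doxorubicin (SD, n = 5).

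The bifunctional enzymes that set the level of the phosphofructokinase activator were low and not called. Pfkfb3, the inducible form, had 15.1, 10.7, 10.2, 14.9 and 14.9 FPKM in medium and 10.6, 10.8, 10.8, 12.7 and 13.1 in doxorubicin. Medium 2 and 3 were as low as doxorubicin 2 and 3, so the difference of -0.16 ± 0.08 (SE; limma with block, adjusted p = 0.181) arose in numbers 1, 4 and 5. Pfkfb4 had 5.38 ± 1.12 FPKM in medium and 4.93 ± 0.832 in doxorubicin (SD, n = 5; limma with block, adjusted p = 0.223).

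Of the 5 payoff enzymes, Pgk1, the first ATP-forming step, alone was called, and it lost the call without number 2, 3, 4 or 5 (adjusted p up to 0.0861). It had 1766, 850.0, 841, 965 and 1000.4 FPKM in medium and 1305, 699, 755, 932 and 911 in doxorubicin, a difference of -0.21 ± 0.06 (SE; limma with block, adjusted p = 0.036; 0.658 without). Gapdh had 3105 ± 1077 FPKM in medium and 2725 ± 698 in doxorubicin (SD, n = 5), lower in each number by -0.35 to -0.02, and missed the threshold at -0.17 (limma with block, adjusted p = 0.0672). Eno1, the enolase, missed it at -0.11 (adjusted p = 0.0764 from limma with block). Near-identical processed copies exist in the mouse genome for several of these enzymes, and how the authors assigned reads shared with them is not given in the sources used here, so these levels are uncertain to that extent.

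The last steps had differences near 0. Pkm, a pyruvate kinase gene measured here without telling its transcript forms apart, had 2259 ± 389 FPKM in medium and 2208 ± 211 in doxorubicin (SD, n = 5). Its difference of -0.02 had a 95% interval of -0.13 to 0.09 (limma with block, adjusted p = 0.761). Ldha, a textbook HIF target as well as the lactate-forming enzyme, had 1627 ± 299.7 FPKM in medium and 1638 ± 224 in doxorubicin (SD, n = 5). Its difference of 0.02 had an interval of -0.08 to 0.12 (limma with block, adjusted p = 0.79), which leaves out the difference seen for any of the 11 called HIF targets. Pgam1, the mutase, had a difference of 0.02 as well (adjusted p = 0.843 from limma with block).

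Both lactate carriers had differences above 0, and neither was called over all 5 numbers. Slc16a1 (MCT1), which carries lactate and pyruvate either way across the membrane, had 48.6, 101, 98.1, 82.1 and 83.7 FPKM in medium 1 to 5 and 78.9, 101, 109, 99.8 and 98.9 in doxorubicin 1 to 5. Medium 1, the highest library for 35 of the 37 genes, was the lowest for this one. The difference was 0.27 ± 0.09 (SE) with a 95% interval of 0.07 to 0.47 and missed the threshold (limma with block, adjusted p = 0.0563; 0.459 without). Without number 1 it was 0.17 and passed (limma with block, adjusted p = 0.0334), as it did without number 2 (0.0451). Slc16a3 (MCT4), the HIF-driven exporter of glycolytic cells, had 183 ± 18.2 FPKM in medium and 189 ± 24.1 in doxorubicin (SD, n = 5), a difference of 0.05 (limma with block, adjusted p = 0.604).

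By median level in medium, the order ran from Gapdh through Pkm, Eno1, Ldha and Aldoa down to Pfkfb4 and P4ha2. Of 36 neighbouring pairs in that order, 34 overlapped in their medium ranges, and the pairs apart were Gpi1 with Pgam1 and Pfkm with Pfkfb4.

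Genes that set HIF activity formed a list of 14, of which 12 were tested. None was called without the block, and with it 3 fell (25.0%) and none rose, against 13.7% of all genes lower and 7.81% higher. These were Arnt, the stable HIF partner (17.8 ± 3.29 FPKM in medium, 14.3 ± 1.07 in doxorubicin, a log2 difference of -0.28), the coactivator Ep300 (13.8 ± 2.09 and 11.4 ± 1.34 FPKM, -0.25), and Vhl, the ligase subunit that removes HIF alpha (7.79 ± 1.05 and 6.58 ± 0.638 FPKM, -0.21; all SD, n = 5). Their adjusted p values were 0.0247, 0.023 and 0.0483 with the block (limma) and 0.223, 0.267 and 0.288 without, and each lost its call with some number left out (up to 0.0795, 0.0945 and 0.163). Epas1, the other HIF alpha subunit, was below the filter at 0.700 FPKM in medium and 0.695 in doxorubicin. The median of the tested list was -0.05.

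A further list of 30 HIF-responsive genes outside the 38 had 21 tested members. None was called without the block, and with it 6 fell (28.6%) and 1 rose (4.76%), against the same 13.7% and 7.81% of all genes, around a median of -0.14. Zfp395, a HIF-induced zinc finger gene, had 21.3 ± 9.10 FPKM in medium and 15.4 ± 5.17 in doxorubicin (SD, n = 5), and fell by 0.42 (limma with block, adjusted p = 0.00339; 0.390 without). Gys1, glycogen synthase, fell by 0.36, and Slc2a3, a second glucose transporter, fell by 0.20 (limma with block, adjusted p = 0.0197 and 0.021). Hmox1, the haem-degrading enzyme that NRF2 also drives, rose by 0.39 (limma with block, adjusted p = 0.0151), from 37.95 ± 24.8 FPKM to 53.1 ± 42.8 (SD, n = 5). Zfp395 was called with any number left out, and Gys1, Slc2a3 and Hmox1 in 2, 2 and 3 of those 5 fits.

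Other genes of glycolysis, pyruvate and linked routes (38 listed, 27 tested) had a median of 0.03. With the block 3 rose (11.1%) and none fell, where 7.81% of all genes were called higher, and without it 1 rose, where 0.689% were. Without number 1 the block called 6 higher, with 10.2% of all genes. Eno3, the muscle enolase, rose in both fits, from 21.9 ± 1.54 FPKM to 29.1 ± 1.90 (SD, n = 5), by 0.40 ± 0.07 (SE; limma, adjusted p = 0.0301 without block and 0.00674 with it), and its groups did not overlap, as in 2.73% of all genes on the higher side. Mpc2, a subunit of the mitochondrial pyruvate carrier, rose by 0.26, and Me1, the cytosolic malic enzyme, by 0.34 (limma with block, adjusted p = 0.0108 and 0.0197). With a number left out, Mpc2 was called in 4 and Me1 in 3 of the 5 fits. Tigar, a p53 target that lowers the phosphofructokinase activator, was 0.32 higher and not called (adjusted p = 0.0633 from limma with block). With numbers 2 and 3, and 4 and 5, averaged, no gene of these 3 lists was called, Zfp395 and Eno3 included.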

How the data were processed

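Poly(A) RNA of 10 libraries was measured, 5 medium and 5 doxorubicin, grouped by the labels. The authors deposited FPKM, fragments scaled to transcript length and mapped fragments, in 1 column per library, and columns were matched to samples through the labels' library names. The genome build named was GRCm39, per the submitters' processing notes. Aligner, quantifier, annotation, strand handling and filters are not given in the sources used here. Low FPKM values showed no whole-read steps, so depth is unknown and no count test or counting interval was used.

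Values were analysed as log2(FPKM + 1) for the 9869 of 22186 genes that averaged 1 FPKM or more. Adding 1 FPKM understates changes of low genes. Each gene was tested for the group term alone in limma 3.58.1 (R 4.3.3) with trend = TRUE, and p-values were adjusted over all 9869 genes by Benjamini-Hochberg, with a threshold of 0.05. The exact permutation test of single genes was two-sided, with 0.00794 as its smallest possible unadjusted p. Both limma fits were run on simulated data in which each replicate number had an independent effect. That simulation does not cover numbers that resemble each other, as some do here.

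Both groups carry replicate numbers 1 to 5. The labels state no pairing by number. Deviations from the group means of the same-numbered libraries correlated at 0.52 to 0.79. The fit with the number as a block is therefore given as well, and for many genes only its p-value is printed. Numbers 2 with 3 and 4 with 5 correlated at 0.51 to 0.69 across numbers, and the other pairs at -0.61 to 0.0029. Doxorubicin 3 correlated at 0.69 with medium 2 and at 0.67 with medium 3. The correlations thus set apart number 1, numbers 2 with 3 and numbers 4 with 5, and do not establish 5 separate pairs. The fit with those numbers averaged, other scalings on the blocked fit, and leaving out each number were added after the data were seen.

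Values in every library are given for genes past the threshold with or without the block and for the gene with the largest difference in each role. For each further list, up to 4 genes with the smallest adjusted p in either fit could be named. Other genes are given by range and count, with values added after they were seen for some of them, among them Hk2, Hk3, Bhlhe40, Tigar, Epas1 and Egln2. The 38 genes and all lists were chosen with earlier results of these data known. Promoter sequences are from RefSeq with the GRCm38.p6 table, cut to the 250 bases before the start, and are not placed on GRCm39. Python 3.11.15 with pandas 2.3.3 made the summaries.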

Additional observations from a re-analysis of the deposited data

Results flagged for a closer look

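The highest or lowest library of a group was set against the rest of its group for each tested gene (Dixon's criterion, 0.71 for 5 libraries). It stood apart in 41 of 74 groups of libraries, in 28 genes. For a single gene, chance flags about 1 group in 20. All genes share the same libraries, so 1 odd library can flag many at once, and that rate is no measure for the count of 41. The share flagged over all genes was not counted. In all 41 the library was number 1 of its group and the highest.

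Medium 1 stood apart in 27 genes. Among glycolytic genes its FPKM was 453 for Slc2a1, 62.7 for Hk1, 206 for Hk2, 886 for Gpi1, 25.8 for Pfkm, 168 for Pfkp and 2629.6 for Aldoa. It was 85.4 for Aldoc, 1005 for Tpi1, 5031 for Gapdh, 1766 for Pgk1, 2586 for Eno1 and 2951 for Pkm. Hif1a had 32.6. Among HIF targets it was 53.7 for Egln1, 160.1 for Egln3, 60.3 for Pdk1, 305 for Bnip3, 127 for Bnip3l, 29.2 for Higd1a, 94.0 for Vegfa and 552 for Ero1a. It was 4.39 for P4ha2, 227 for Hilpda, 57.3 for Mxi1, 172 for Bhlhe40 and 34.6 for Ankrd37.

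Doxorubicin 1 stood apart in 14 genes. Its FPKM was 255 for Slc2a1, 49.6 for Hk1, 91.4 for Hk2, 716 for Gpi1, 18.1 for Pfkm, 1862 for Aldoa, 855 for Tpi1, 3946 for Gapdh, 2251 for Eno1 and 2034 for Ldha. Among HIF targets it was 32.2 for Egln1, 109.5 for Egln3, 23.7 for Higd1a and 2.92 for P4ha2. Of the glycolytic genes flagged in medium, Pfkp, Aldoc, Pgk1 and Pkm were not flagged in doxorubicin, and Ldha was flagged in doxorubicin only.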

How the results depend on the processing

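With the replicate block, HIF targets called lower went from 0 to 11, glycolytic genes from 0 to 3, and all genes from 68 higher and 22 lower to 771 and 1356. Array weights without the block gave 5 HIF targets lower, 1 glycolytic gene higher and 2 lower, and 1379 and 2302 of all genes. Without number 1 there was 1 HIF target lower and 283 and 273 of all genes, and with the block as well 11 HIF targets, 1 glycolytic gene higher and 3 lower, and 1010 and 1817. Testing only genes that averaged 5 FPKM gave 40 genes higher, and the exact permutation test with adjustment 0 and 0. On the blocked fit, quantile normalization gave 1 glycolytic gene higher and 6 lower, and 9 HIF targets lower. Its count of all genes called lower was below the 1356 without scaling. Median scaling of the blocked fit gave 1 glycolytic gene higher with 1421 and 861 of all genes, and array weights 1 higher with 1387 and 2314. Averaging numbers 2 with 3 and 4 with 5 gave 0 in both classes with 9 and 15 of all genes. Median scaling thus turned the split of all calls from mostly lower to mostly higher, while the median of all genes moved from -0.03 to 0.02. With 1 number left out of the blocked fit, HIF targets lower ranged from 6 to 11, glycolytic genes lower from 2 to 3 and higher from 0 to 1, and all genes from 254 to 1010 higher and 373 to 1817 lower. With 1 library left out and no block, the HIF target median ranged from -0.56 to -0.092, the glycolytic median from -0.17 to 0.036, and all genes from 15 to 136 higher and 0 to 90 lower. The cause of these shifts was not tested.

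Signs turned in 13 genes, none of them called with or without the block over all libraries. Hk1 was 0.0018 with quantile normalization, 0.047 with median scaling, 0.10 with array weights, 0.082 without number 1 and 0.070 with block and array weights. Pfkm was -0.0052 with pseudocount 5 and -0.078 with sets averaged. Aldoc was 0.094 with array weights, 0.081 without number 1 and 0.060 with block and array weights. Pgam1 was -0.015 with quantile normalization and -0.0079 with sets averaged. Pkm was 0.018 with quantile normalization, 0.027 with median scaling, 0.012 with array weights, 0.022 without number 1 and 0.0063 with block and array weights. Slc16a3 was -0.0077 without number 1. With 1 library left out, ranges crossing 0 were -0.12 to 0.20 for Hk1, -0.51 to 0.050 for Hk2, -0.24 to 0.075 for Gpi1, -0.094 to 0.23 for Pfkm, -0.13 to 0.11 for Aldoc, -0.31 to 0.022 for Gapdh, -0.042 to 0.11 for Pgam1, -0.079 to 0.078 for Pkm, -0.063 to 0.12 for Ldha, -0.025 to 0.085 for Slc16a3, -0.22 to 0.0059 for Bnip3l, -0.21 to 0.013 for Higd1a and -0.64 to 0.011 for Bhlhe40. With the block and 1 number left out they were -0.038 to 0.082 for Hk1, -0.038 to 0.13 for Pfkm, -0.13 to 0.081 for Aldoc, -0.018 to 0.053 for Pgam1, -0.046 to 0.022 for Pkm, -0.0067 to 0.040 for Ldha and -0.0077 to 0.096 for Slc16a3. No HIF target called with the block turned its sign in any setting run. Depth is unknown and sets no stated limit.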
